A study of Mus musculus with 59 samples.

Results

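The 6 genes described here, *Zscan4c*, *Zscan4d*, *Zscan4f*, *Tcstv1*, *Tcstv3* and *Zfp352*, are markers of the two-cell-like state of mouse embryonic stem cells (ESCs). They were chosen by symbol, with earlier results of these data known, and are 6 of the 24391 genes listed. *Zscan4c*, *Zscan4d*, *Zscan4f* and *Zfp352* had a value above 0 in at least 1 library, so 4 of the 6 could be followed. *Tcstv1* and *Tcstv3* were listed at 0 in all 59 libraries, as were 2179 genes in total, and no fold change is given for either gene.

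In a culture of ESCs, a small and changing share of the cells at any moment expresses transcripts that the mouse embryo makes at the two-cell stage, when its own genome is first switched on. The ZSCAN4 proteins are zinc finger and SCAN domain proteins known for lengthening telomeres and for genome stability in ESCs, *Zfp352* encodes a zinc finger protein of the early embryo, and the TCSTV proteins are encoded by a family of two-cell transcripts. The transcription factor DUX drives this programme, the DPPA2 and DPPA4 proteins act ahead of *Dux*, and the variant Polycomb complex PRC1.6, built on PCGF6 with L3MBTL2, MGA, MAX and E2F6, is among the known repressors of germline and early embryonic genes. Because the state belongs to few cells, the level in a bulk library depends both on the number of such cells and on the RNA in each, and these cannot be told apart here.

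The study removed components of Polycomb repressive complex 1 (PRC1) from mouse ESCs and asked how genes change as ESCs become embryoid bodies (EBs). Poly(A) RNA was sequenced in 59 libraries from 6 cell lines, 1 for each genotype, all carrying a tamoxifen-activated Cre (ERT2-Cre, driven from *Rosa26*). ESCs grew on mouse embryonic fibroblasts with LIF and inhibitors of FGF receptor, MEK and GSK3, and EBs were made over 2 days without them on low-attachment dishes. Cells without 4-hydroxytamoxifen (4-OHT) are called control and cells with 4-OHT are called mutant. In the *Pcgf1* line the genotype changed from Pcgf1f/f to Pcgf1delta/delta, with 4 control ESC, 5 mutant ESC, 5 control EB and 5 mutant EB libraries. The other 5 lines had 2 libraries in each of the 4 groups. The *Ring1* point mutant line carried Ring1apm/pm in both states and changed from Ring1b to Ring1bpm/pm, a state the study describes as dead for RING1 catalysis. The *Ring1A/B* line lacked *Ring1a* (Ring1a-/-) in both states, the control libraries included, and changed from Ring1bf/f to Ring1bdelta/delta. In the last 3 lines Pcgf2f/f;Pcgf4f/f, Pcgf3f/f;Pcgf5f/f and Pcgf6f/f were changed to the delta/delta forms. For EBs, the *Pcgf1*, *Pcgf2/4* and *Pcgf3/5* genes were deleted ahead of EB formation, whereas in the *Ring1A/B* and *Pcgf6* lines deletion and EB formation began together.

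Groups were taken from the sample labels. In the *Pcgf1* line and the *Ring1* point mutant line all 27 labels matched the stage and state in the deposited library names, whereas in the other 4 lines the label and the name differed for 21 of 32 libraries. For those 4 lines the text says "labelled", and a direction between their groups holds for the labels alone. Transcripts of *Pcgf1* itself stood at 7.30 to 16.6 TPM (each gene's share of all transcripts in a library, corrected for transcript length) in the control libraries of its line and at 0.627 to 2.77 TPM in the mutant ones. Transcripts of *Rnf2*, which encodes RING1B, stood at 66.6 to 85.8 TPM in the control and 54.5 to 64.6 TPM in the mutant libraries of the point mutant line. In the *Ring1A/B* line they were 77.2 and 78.2 TPM in libraries labelled control ESC, 62.9 and 63.2 TPM in those labelled mutant ESC, 83.2 and 95.1 TPM in those labelled control EB and 78.1 and 80.5 TPM in those labelled mutant EB, without overlap between the labelled states at either stage but far from absent in any library. By name the order of the states was the reverse, again without overlap at either stage. *Rnf2* was 83.2 and 95.1 TPM in named mutant ESC against 77.2 and 78.2 TPM in named control ESC. It was 78.1 and 80.5 TPM in named mutant EB against 62.9 and 63.2 TPM in named control EB. All 7 pluripotency markers had a mean of at least 1 TPM in every group of the 2 matching lines, and the summed level of 4 formative genes (*Fgf5*, *Otx2*, *Pou3f1* and *Dnmt3b*) went from 37.7 to 75.6 TPM in control ESCs up to between 1029 and 2950 TPM in control EBs of the *Pcgf1* line. In the *Ring1A/B* line the same sum was 1007 to 1047 TPM in libraries labelled mutant ESC and 104 to 109 TPM in libraries labelled control EB, the reverse of the labelled stages and the order that the names give. The number of reads per library is unknown, since the files hold TPM values alone.

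The 3 *Zscan4* genes lie in 1 cluster on mouse chromosome 7 (mm9, GENCODE annotation). *Zscan4c* spans chr7:11591071-11595896 on the plus strand, *Zscan4d* chr7:11746992-11751497 on the minus strand and *Zscan4f* chr7:11983264-11988090 on the plus strand, each with 4 exons in its longest form, and the copies from *Zscan4b* to *Zscan4f* extend over 502 kb. *Zfp352*, with 2 exons, is alone on chromosome 4 at chr4:89885511-89892393 on the plus strand. Of all 75-base windows in the transcripts, 71.2% of those of *Zscan4c*, 35.8% of those of *Zscan4d*, 87% of those of *Zscan4f* and 0% of those of *Zfp352* also occurred in at least 1 of the 6 other genes compared with it. Reads of 50 or 75 bases from the *Zscan4* copies can therefore not all be placed on 1 copy, and since the treatment of multi-mapping reads in the expression tables is not given in the sources used here, the split of signal among the copies is uncertain.

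The promoters are shown because the *Zscan4* genes, which moved together below, share nearly the same start region. A link between the shared sequence and the joint movement was not tested. Each line gives 250 bases before to 50 bases after the RefSeq start site, 5′ to 3′ (GRCm38.p6), at chr7:11005495-11005794 on the plus strand for *Zscan4c*, chr7:11166099-11166398 on the minus strand for *Zscan4d*, chr7:11397665-11397964 on the plus strand for *Zscan4f* and chr4:90218570-90218869 on the plus strand for *Zfp352*. Capitals mark a TATA box (TATAAA) and a DUX-like motif (TGATTNAAT), both searched on both strands.
Zscan4c: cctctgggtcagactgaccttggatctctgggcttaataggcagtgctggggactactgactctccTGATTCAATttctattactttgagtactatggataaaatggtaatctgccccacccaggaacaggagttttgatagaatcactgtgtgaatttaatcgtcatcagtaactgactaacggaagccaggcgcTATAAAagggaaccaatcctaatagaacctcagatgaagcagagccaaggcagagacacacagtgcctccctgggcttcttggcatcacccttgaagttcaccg
Zscan4d: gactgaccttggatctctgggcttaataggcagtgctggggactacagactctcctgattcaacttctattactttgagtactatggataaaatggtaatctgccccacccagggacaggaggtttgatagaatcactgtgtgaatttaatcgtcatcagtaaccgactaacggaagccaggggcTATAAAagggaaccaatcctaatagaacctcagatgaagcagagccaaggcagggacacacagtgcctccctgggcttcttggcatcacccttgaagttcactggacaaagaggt
Zscan4f: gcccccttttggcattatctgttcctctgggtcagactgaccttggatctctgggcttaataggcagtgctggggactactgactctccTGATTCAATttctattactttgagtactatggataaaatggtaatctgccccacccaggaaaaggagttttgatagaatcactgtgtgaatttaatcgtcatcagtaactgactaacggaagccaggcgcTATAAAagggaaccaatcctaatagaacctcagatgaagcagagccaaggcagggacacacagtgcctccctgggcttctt
Zfp352: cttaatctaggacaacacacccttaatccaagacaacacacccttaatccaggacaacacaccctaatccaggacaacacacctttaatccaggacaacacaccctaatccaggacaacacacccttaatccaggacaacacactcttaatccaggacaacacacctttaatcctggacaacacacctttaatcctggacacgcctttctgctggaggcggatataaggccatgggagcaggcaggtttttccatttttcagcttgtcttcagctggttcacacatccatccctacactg
Aligned without gaps, the *Zscan4c* and *Zscan4f* promoters differed at 2 of 277 shared positions (99.3% identical), *Zscan4c* and *Zscan4d* at 8 of 289 (97.2%) and *Zscan4d* and *Zscan4f* at 7 of 266 (97.4%). TATAAA occurred once in each *Zscan4* promoter, beginning 54 bases before the start site in *Zscan4c*, 65 in *Zscan4d* and 31 in *Zscan4f*, and in 13.6% of all 32851 mouse promoters of this length. TGATTNAAT occurred once in *Zscan4c* (184 bases before the start site) and once in *Zscan4f* (161 bases), not in *Zscan4d*, and in 0.718% of all promoters. The *Zfp352* promoter was 28.6% to 29.9% identical to the others, held neither motif, and contained 7 copies of the 12 bases ggacaacacacc. Neither the E-box CACGTG bound by MAX and MGA (7.15% of all promoters) nor the E2F motif GCGGGA (20%) was found in the 4 windows. These matches describe letters in the window, not binding.

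In the *Pcgf1* line the *Zscan4* genes were low in all 4 groups and lowest in *Pcgf1*-mutant EBs. *Zscan4c* was 9.73, 1.49, 2.49 and 15.4 TPM in the 4 control ESC libraries and 13.5, 4.27, 2.17, 9.96 and 10.997 TPM in the 5 mutant ESC libraries. It was 8.23, 6.37, 14.7, 10.7 and 9.63 TPM in control EBs and 2.78, 0.391, 5.02, 1.29 and 2.18 TPM in mutant EBs. The 2 ESC groups overlapped widely, with replicates 2 and 3 far below the rest in both, while every mutant EB library lay below every control EB library. *Zscan4d*, known as the main copy of two-cell embryos, was 7.09, 3.49, 13.7, 7.65 and 6.42 TPM in control EBs and 3.52, 0, 3.35, 1.38 and 1.76 TPM in mutant EBs, so that the highest mutant value reached just above the lowest control value. *Zscan4f* was 10.1, 7.29, 18.9, 14.4 and 12.4 TPM in control EBs and 4.02, 0.243, 6.25, 1.72 and 2.62 TPM in mutant EBs, without overlap. Across the line, 1.63% of genes had mutant EB libraries all below the control EB libraries.

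**Figure D1:**
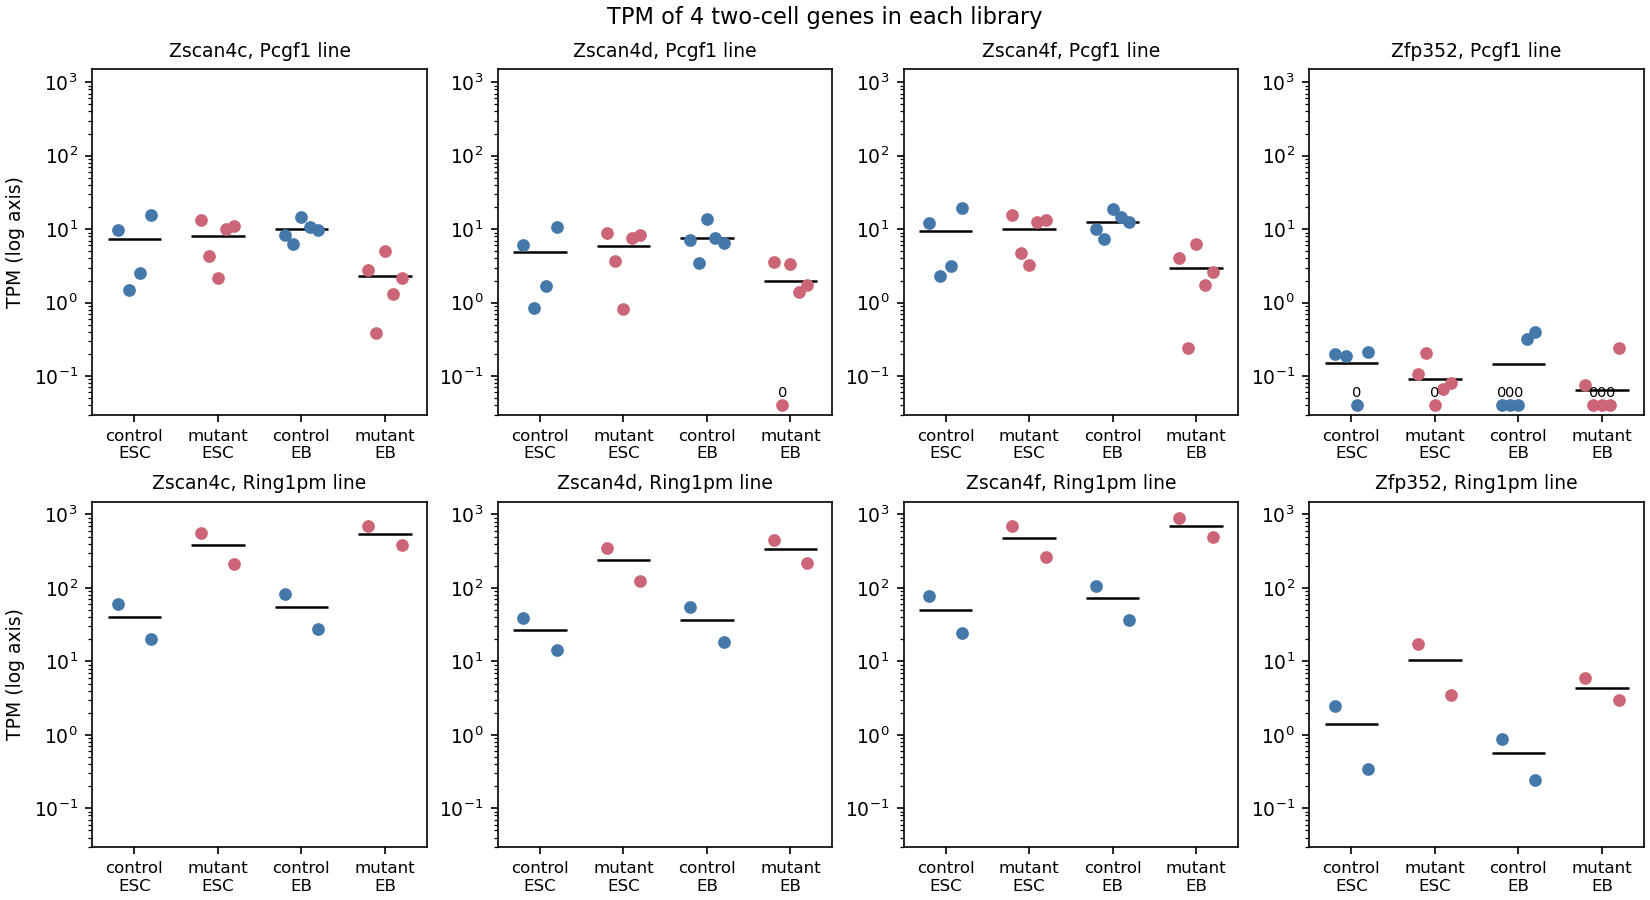
TPM of *Zscan4c*, *Zscan4d*, *Zscan4f* and *Zfp352* (log axis, values of 0 drawn at the bottom and marked 0) in each library of the *Pcgf1* and *Ring1* point mutant lines, by group, with points for libraries and bars for group means. Mutant EBs sit lowest in the *Pcgf1* line, *Zscan4c* at 0.391 to 5.02 TPM, and mutant ESCs and EBs sit highest in the point mutant line, *Zscan4c* at 209 to 687 TPM.

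*Zscan4c* and *Zscan4f* averaged 4.25-fold lower and *Zscan4d* 3.83-fold lower in mutant than in control EBs, yet no gene passed the test without the replicate number. Group means of *Zscan4c* were 9.92 ± 3.12 TPM (SD, n = 5) in control EBs, 8.17 ± 4.76 TPM (n = 5) in mutant ESCs, 7.29 ± 6.55 TPM (n = 4) in control ESCs and 2.33 ± 1.75 TPM (n = 5) in mutant EBs. The first 3 in this order differed by less than their SDs. On the log2(TPM + 0.1) scale the difference between mutant and control EBs was −2.36 (SE 0.67) for *Zscan4c*, with a limma adjusted p of 0.0797. For *Zscan4d* it was −2.47 (SE 0.90, limma adjusted p = 0.215) and for *Zscan4f* −2.50 (SE 0.71, limma adjusted p = 0.081). In limma 0 of the 4 genes passed, where 1.95% of all genes tested passed. At an unadjusted p under 0.05, 3 were lower, as were 1381 of all 20594 genes. All 3 *Zscan4* genes were lower in 5 of 5 same-numbered pairs, and once the replicate number was a block 3 of the 4 fell, with limma adjusted p of 0.0133, 0.0422 and 0.0101 for *Zscan4c*, *Zscan4d* and *Zscan4f*, where 5.58% of all genes fell. Without mutant EB replicate 3, the highest of its group, *Zscan4c* and *Zscan4f* also passed in the fit without the block (limma adjusted p = 0.0425 and 0.0423).

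The same copies were lower in mutant EBs than in mutant ESCs. The log2 differences were −1.87 for *Zscan4c* (SE 0.67), −1.84 for *Zscan4d* (SE 0.90) and −1.999 for *Zscan4f* (SE 0.71), with limma adjusted p of 0.0604, 0.184 and 0.0589, and the direction held in 4 of 5 pairs for each. Of the 4 genes 0 passed in limma, against 18.3% of all genes passing. At an unadjusted p under 0.05, 2 were lower, as were 3294 of all 20594 genes. With the block *Zscan4c* and *Zscan4f* fell (limma adjusted p = 0.0151 and 0.0108), where 20% of all genes fell, and *Zscan4d* missed the threshold at 0.0596. They also passed in the fit without the block when mutant ESC replicate 3 (0.0266 and 0.0379), mutant EB replicate 3 (0.033 and 0.0313) or control ESC replicate 4 (0.0459 and 0.0486) was left out, and *Zscan4c* alone when control ESC replicate 2 was (0.0454), all limma adjusted p.

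Between control EBs and control ESCs *Zscan4c* differed by 0.94 on the log2 scale (SE 0.71, limma adjusted p = 0.377), with 2 of 4 pairs in each direction, and 0 of the 4 genes passed, adjusted or unadjusted, while 24.9% of all genes passed. Between mutant and control ESCs the difference was 0.45 (SE 0.71, limma adjusted p = 0.991), again with 0 of 4 genes passing either way, against 0.641% of all genes. Without control ESC replicate 2 this small difference turned to −0.10. The 4-OHT difference in EBs minus that in ESCs was −2.81 for *Zscan4c* (SE 0.97, limma adjusted p = 0.631), and 0 of 4 genes passed where 1 gene, 0.00486% of those tested, did. *Zscan4c*, *Zscan4d* and *Zscan4f* had a negative value with an unadjusted p under 0.05 in that test of the difference itself, as did 621 of all 20594 genes. Whether *Pcgf1* deletion acted on these genes differently in EBs and in ESCs was thus not shown at the adjusted threshold.

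*Zfp352* was close to absent in the *Pcgf1* line. Its level ran from 0 to 0.404 TPM over the 19 libraries, with 0 in 8 of them, and no comparison of groups passed. Its difference between mutant and control EBs was −0.36 (SE 0.53, limma adjusted p = 0.921).

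Levels of other cell types moved in the same comparison. The summed level of 7 feeder fibroblast markers was between 24.04 and 45.1 TPM in control EBs but between 7.37 and 13.4 TPM in mutant EBs, with *Lum* at 0 in the latter. The sum of 6 primitive endoderm markers was between 2.78 and 4.96 TPM in control EBs but between 6.24 and 19.99 TPM in mutant EBs, and that of 5 trophoblast markers 8.60 to 23.9 and 5.07 to 9.42 TPM, with *Elf5* at 0 in both. The sum of the 4 formative genes was 1029 to 2950 and 323 to 1753 TPM. Their part in the *Zscan4* result was not tested.

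In the *Ring1* point mutant line the direction was the opposite: all 4 genes were higher in mutant cells at both stages. *Zscan4c* was 60.0 and 20.3 TPM in control ESCs, 551 and 209 TPM in mutant ESCs, 83.2 and 27.5 TPM in control EBs and 687 and 384 TPM in mutant EBs. *Zscan4d* stood at 38.7 and 14.3 TPM in control ESCs, at 350 and 126 TPM after 4-OHT, at 54.4 and 18.1 TPM in control EBs and at 452 and 222 TPM in EBs with 4-OHT. For *Zscan4f* the values were 77.2 and 24.3 TPM, 705 and 264 TPM, 107 and 36.9 TPM, then 884 and 490 TPM, with groups listed as for *Zscan4c*. In every group replicate 1 exceeded replicate 2, and every mutant library exceeded every control library of its stage. *Zfp352* was 2.49 and 0.346 TPM in control ESCs, 17.5 and 3.44 TPM in mutant ESCs, 0.873 and 0.247 TPM in control EBs and 5.86 and 2.96 TPM in mutant EBs. With 2 libraries a group such separation is frequent: 32.5% of all genes were higher without overlap in mutant ESCs and 30.1% in mutant EBs.

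Group means of *Zscan4c* ran from 535 ± 215 TPM (SD, n = 2) in mutant EBs through 380 ± 242 TPM in mutant ESCs and 55.4 ± 39.4 TPM in control EBs to 40.2 ± 28.1 TPM in control ESCs, and neighbours of the same state lay within their SDs of each other. The means were 9.46-fold higher in mutant than in control ESCs and 9.67-fold higher in mutant than in control EBs, and those of *Zfp352* 7.37-fold and 7.87-fold. In ESCs the log2 differences were 3.28 for *Zscan4c* (SE 0.72, limma adjusted p = 0.0645), 3.15 for *Zscan4d* (SE 0.73, adjusted p = 0.0733), 3.31 for *Zscan4f* (SE 0.73, adjusted p = 0.0647) and 2.87 for *Zfp352* (SE 1.05, adjusted p = 0.213). In limma 0 of the 4 passed, against 2.54% of all genes passing. At an unadjusted p under 0.05 all 4 were higher, as were 2886 of all 20279 genes. In EBs *Zscan4c* rose by 3.42 (limma adjusted p = 0.0452), *Zscan4d* by 3.33 (0.0493) and *Zscan4f* by 3.38 (0.048), where 3.76% of all genes rose, while *Zfp352* was 2.88 higher without passing (0.174). The EB calls lay just inside the threshold. They were lost when any 1 of the 8 libraries was left out, with a pseudocount of 1, with either rescaling of the libraries and when the EB groups were fitted alone, each of which left 0 of the 4 genes called, and the limma adjusted p of *Zscan4c* ranged from 0.00133 to 0.237 over 14 alternatives. Its log2 difference stayed between 2.62 and 4.22 in all of them.

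The *Zscan4* genes were not shown to differ between the stages in the point mutant line, and the groups overlapped. *Zscan4c* was 0.45 higher in control EBs than in control ESCs on the log2 scale (limma adjusted p = 0.787) and 0.60 higher in mutant EBs than in mutant ESCs (0.788), each with a standard error of 0.72. Without 1 library the first value turned to −0.34 (control EB replicate 1) or −0.33 (control ESC replicate 2) and the second to −0.10 (mutant ESC replicate 2). Of the 4 genes 0 passed in either stage comparison in limma and 0 had an unadjusted p under 0.05, where 4.73% and 0.133% of all genes passed. The 4-OHT difference in EBs minus that in ESCs was 0.14 (SE 1.02, limma adjusted p = 1), with 0 of 4 genes passing, adjusted or not, against 0.00986% of all genes. The sign of that value turned when any of 4 libraries was left out, between −0.65 and −0.28, namely control ESC or mutant EB replicate 1, or mutant ESC or control EB replicate 2. *Zfp352* was 2.53-fold lower in control EBs than in control ESCs and 2.37-fold lower in mutant EBs than in mutant ESCs by the means, with overlapping groups.

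The replicates of this line differed far more in the *Zscan4* genes than in other genes of like level. The SD of *Zscan4c* on the log2 scale was 0.991 to 1.13 in control ESCs, mutant ESCs and control EBs and 0.594 in mutant EBs, whereas the median SD of genes within 2-fold of its level was 0.0741 to 0.16, and 97.5% to 99.8% of those genes had a smaller SD. In the *Pcgf1* line its SD was 1.55 in control ESCs, 1.09 in mutant ESCs and 1.27 in mutant EBs, above the SDs of 96.7%, 95.5% and 83.5% of such genes, but 0.443 in control EBs, above those of 55.3%. *Zfp352* also varied widely in the point mutant line, with SDs of 0.681 to 1.79, above those of 82.8% to 99.7% of genes of like level. Its SD in the *Pcgf1* line was above those of 29.4% of such genes in control ESCs, 14.3% in mutant ESCs, 75.3% in control EBs and 58.5% in mutant EBs.

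Other cell type markers were also higher in the mutant libraries of the point mutant line. The 6 primitive endoderm markers summed to 4.72 to 5.63 TPM in control ESCs, 21.8 to 22.7 in mutant ESCs, 8.71 to 11.4 in control EBs and 31.1 to 31.7 in mutant EBs, and the 5 trophoblast markers to 6.02 to 6.87, 17.04 to 18.6, 12.96 to 17.3 and 32.4 to 34.9 TPM. Feeder markers summed to 35.5 to 39.9, 60.1 to 65.2, 28.6 to 31.8 and 64.4 to 68.1 TPM. In control EBs the formative genes summed to 425 and 657 TPM, against 125 and 145 TPM in mutant EBs. Their part in the *Zscan4* result was not tested.

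**Figure D2:**
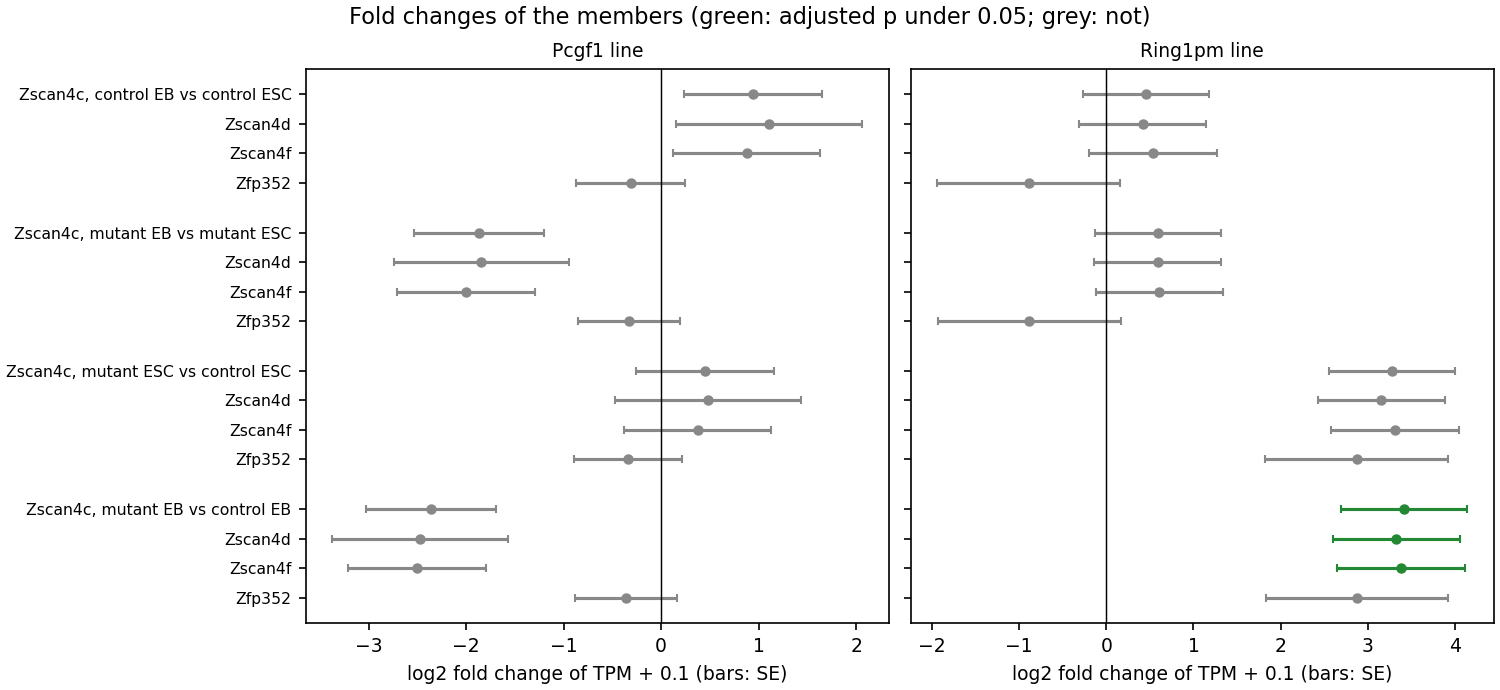
Differences on the log2(TPM + 0.1) scale with their standard errors from limma, for *Zscan4c*, *Zscan4d*, *Zscan4f* and *Zfp352* in each comparison of the *Pcgf1* and *Ring1* point mutant lines, with a line at 0. For mutant against control EBs the *Zscan4* points lie at −2.36 to −2.50 in the *Pcgf1* line and at 3.33 to 3.42 in the point mutant line.

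Even without 4-OHT the 2 lines with matching labels differed in level. In a limma fit over their 27 libraries, control ESCs of the point mutant line exceeded control ESCs of the *Pcgf1* line by 2.80 on the log2 scale for *Zscan4c* (SE 0.89, adjusted p = 0.0284), 2.72 for *Zscan4f* (SE 0.94, adjusted p = 0.0435), 2.84 for *Zscan4d* (SE 1.16, adjusted p = 0.0867) and 2.24 for *Zfp352* (SE 0.83, adjusted p = 0.0602). Thus 2 of the 4 passed, where 8.19% of all genes were higher. The count was 0 without *Pcgf1* control ESC replicate 2 or 3 or without point mutant control ESC replicate 1, and also when the control ESC groups were fitted alone. It was 1 without *Pcgf1* control EB replicate 5, point mutant control ESC replicate 2 or any 1 of the 4 mutant libraries of the point mutant line. The change from control ESC to control EB was not shown to differ between the lines for the 4 genes in limma (0 passed, adjusted or unadjusted), where 3.48% of all genes passed. Line, clone and library series cannot be told apart here, and the control state of the point mutant line already carries Ring1apm/pm.

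The 4 lines whose labels and names differ are given by label, library by library, with no statement on stage or mutation beyond the labels. In the *Ring1A/B* line *Zscan4c* was 59.3 and 62.1 TPM in libraries labelled control ESC, 71.4 and 72.5 TPM in those labelled mutant ESC, 2656 and 2441 TPM in those labelled control EB and 1659 and 1499 TPM in those labelled mutant EB. *Zscan4f*, the most abundant copy, reached 3272 and 3010 TPM in the libraries labelled control EB, and *Zfp352* went from 1.29 and 1.40 TPM in those labelled control ESC to 69.2 and 56.9 TPM. All 4 libraries labelled EB, high in every one of the 4 genes, bear mutant names, and all 4 labelled ESC bear control names. Together the members made up 0.446% to 0.783% of all TPM in the libraries labelled EB and 0.0176% to 0.0215% in those labelled ESC.

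By name, libraries labelled control EB are mutant ESC and those labelled mutant ESC are control EB, while the other groups match their labels. The labelled stage contrasts of this line thus set mutant against control by name, and the labelled state contrasts set EB against ESC. In limma *Zscan4c*, *Zscan4d*, *Zscan4f* and *Zfp352* rose from labelled control ESC to labelled control EB, by 5.39, 5.37, 5.38 and 5.45 on the log2 scale in that order (limma adjusted p = 9.4e-09 for each *Zscan4* gene and 1.08e-06 for *Zfp352*), where 28.6% of all genes rose. From labelled mutant ESC to labelled mutant EB they rose by 4.45, 4.45, 4.44 and 3.93 (limma adjusted p = 1.5e-08 for each *Zscan4* gene and 1.8e-06 for *Zfp352*), where 36.6% of all genes rose. Between labelled mutant and control EB all 4 genes fell by 0.69, 0.62, 0.69 and 1.77 (limma adjusted p = 0.000148, 0.000239, 0.000147 and 0.000291), where 14.1% of all genes fell. Between labelled mutant and control ESC the *Zscan4* genes rose slightly, by 0.24, 0.30 and 0.25 (limma adjusted p = 0.0108, 0.00388 and 0.00945), where 25.2% of all genes rose, and *Zfp352* was −0.25 (0.277). That last count of 3 fell to 0 without control ESC replicate 1 and to 1 without either mutant ESC library. The replicates of this line lay close together, with an SD of *Zscan4c* on the log2 scale of 0.0161 to 0.104 and a median SD of genes of like level of 0.0203 to 0.0404.

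In the *Pcgf6* line the libraries fell into a similar pattern, with a wide gap between same-group libraries. *Zscan4c* was 3.72 and 1.01 TPM in libraries labelled control ESC, 5.55 and 1.32 TPM in those labelled mutant ESC, 77.9 and 7.17 TPM in those labelled control EB and 77.4 and 6.63 TPM in those labelled mutant EB. *Zscan4d*, here the most abundant of the 3, was 126 and 10.2 TPM in the libraries labelled control EB and 118 and 10.6 TPM in those labelled mutant EB. *Pcgf6* transcripts themselves were 34.7 to 46.3 TPM in the libraries labelled EB and 67.0 to 105 TPM in those labelled ESC. The replicate 1 libraries, named ESC, were higher than the replicate 2 libraries, named EB, in each group, and the 4 libraries labelled EB, all named mutant, were higher than the 4 labelled ESC, all named control. *Zfp352* followed with 7.36, 1.41, 6.70 and 2.00 TPM in the libraries labelled EB and 0.365, 0.146, 0.811 and 0.140 TPM in those labelled ESC. By label, with 2 such unlike libraries a group, *Zscan4c* was 3.53 higher in control EB than in control ESC (SE 1.51, limma adjusted p = 0.845) and 3.01 higher in mutant EB than in mutant ESC (0.817). In limma 0 of the 4 genes passed in any of the 4 comparisons, as did 0% of all genes in each. At an unadjusted p under 0.05, 3 of the 4 were higher in the first of these comparisons and 1 in the second. Of all 19695 genes, 948 and 1012 were higher at that level. The labelled state contrasts had the same named conditions on both sides and cannot show an effect of the deletion.

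In the *Pcgf3/5* line *Zscan4c* was 22.4 and 19.5 TPM in libraries labelled control ESC, 21.05 and 4.43 TPM in those labelled mutant ESC, 3.71 and 5.65 TPM in those labelled control EB and 7.09 and 25.4 TPM in those labelled mutant EB. The 4 libraries with 19.5 TPM or more are those named ESC, and the 4 with 7.09 TPM or less are those named EB, whatever their names say of 4-OHT. By label, control EB was lower than control ESC by 2.17 in *Zscan4c*, 1.95 in *Zscan4d* and 2.18 in *Zscan4f* on the log2 scale, with a limma adjusted p of 0.343 for each. Of the 4 genes 0 passed in limma in the 4 comparisons, where 0.0601%, 0%, 0.0401% and 0.0301% of all genes passed for control EB against control ESC, mutant EB against mutant ESC, mutant against control ESC and mutant against control EB. In the first, 2 were lower at an unadjusted p under 0.05, as were 1099 of all 19963 genes. With the groups compared fitted alone, 3 passed in that first comparison (limma adjusted p = 0.00655 to 0.00749). The share of all genes passing in that fit is not given here, so the 3 cannot be set against it. In the same comparison 29.1% of all genes were lower without overlap.

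In the *Pcgf2/4* line *Zscan4c* stayed low, at 1.41 and 1.37 TPM in libraries labelled control ESC, 1.05 and 1.15 TPM in those labelled mutant ESC, 1.99 and 1.83 TPM in those labelled control EB and 2.77 and 3.87 TPM in those labelled mutant EB. The 4 libraries labelled EB, all named mutant, lay above the 4 labelled ESC, all named control. Each labelled group held 1 library named ESC and 1 named EB. The labelled state contrasts thus had the same named conditions on both sides and cannot show an effect of the deletion. The log2 difference between labelled mutant EB and mutant ESC was 1.49 (SE 0.44, limma adjusted p = 1), and 0 of the 4 genes passed in limma in the 4 comparisons, nor did any of the other genes (0% in each). In that one comparison 2 of the 4 were higher at an unadjusted p under 0.05, as were 168 of all 19250 genes.

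**Figure D3:**
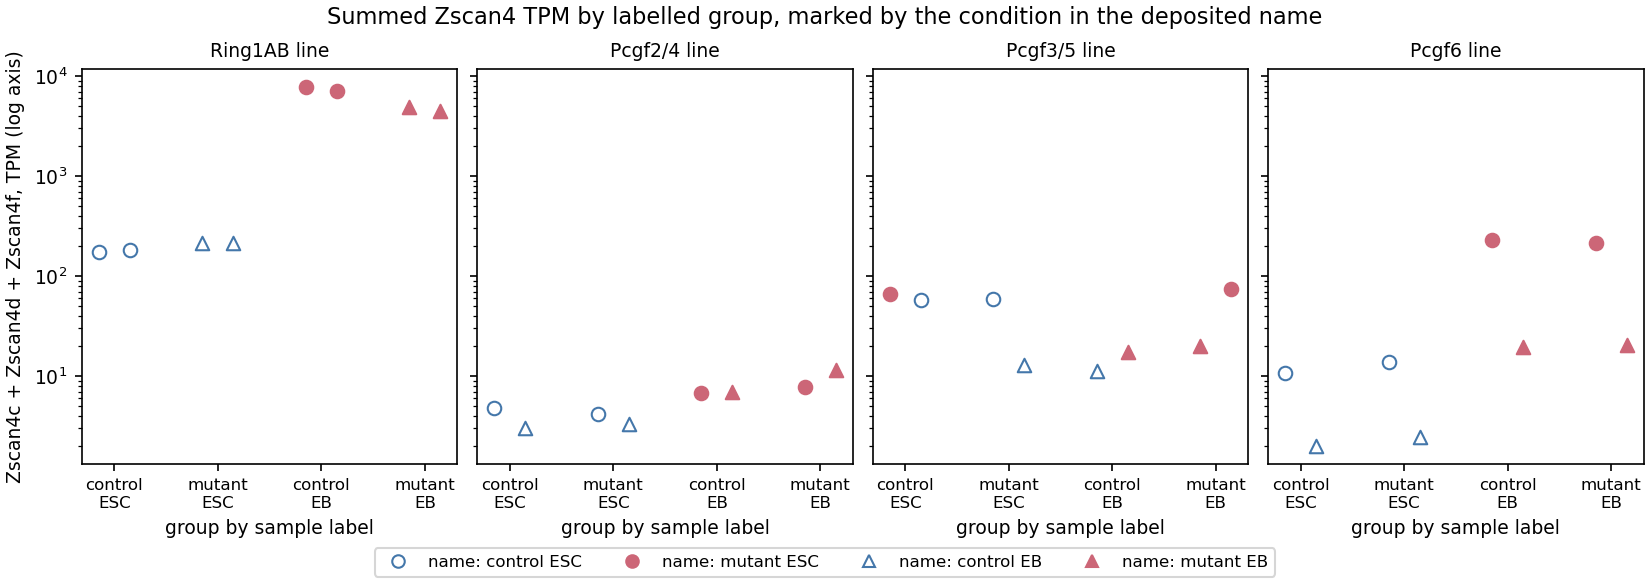
Summed TPM of *Zscan4c*, *Zscan4d* and *Zscan4f* (log axis) in each library of the 4 lines whose labels and names differ, placed by label, with the symbol giving the stage and state in the library name. In the *Ring1A/B* and *Pcgf6* lines the high libraries are those named mutant, and in the *Pcgf3/5* line those named ESC.

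The *Zscan4* copies moved together. Over the 19 libraries of the *Pcgf1* line the correlation on the log2(TPM + 0.1) scale was 0.989 between *Zscan4c* and *Zscan4f*, 0.956 between *Zscan4c* and *Zscan4d* and 0.97 between *Zscan4d* and *Zscan4f*, while each correlated with *Zfp352* at 0.314 to 0.328. Over the 8 libraries of the point mutant line the correlations with *Zfp352* were 0.896 to 0.9. Libraries of 1 line share their clone, and the copies share reads, so these values describe the tables. The 10 genes whose pattern over the 19 libraries was most like that of the *Zscan4* sum, of 14475 compared, were *Zscan4a* (r = 0.973), *Zscan4b* (0.968), *Gm13119* (0.918), *Gm5662* (0.87), *Pramef25* (0.865), *Usp17ld* (0.835), *Usp17lc* (0.801), *BC080695* (0.788), *Usp17le* (0.783) and *Tpm1* (0.776). In the 8 libraries of the point mutant line, which played no part in that choice, the same genes had r of 0.658 (*Tpm1*) to 1 (*Zscan4a*).

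Which copy carried most of the signal differed between lines. Per transcript length, *Zscan4f* exceeded *Zscan4d* in all 18 libraries of the *Pcgf1* line with a ratio (1.14 to 3.99, median 1.79) and in all 8 of the *Ring1* point mutant (1.7 to 2.21), *Ring1A/B* (1.68 to 1.79) and *Pcgf3/5* lines (1.56 to 2.02). In the *Pcgf2/4* and *Pcgf6* lines *Zscan4f* was below *Zscan4d* in all 8 libraries, at 0.117 to 0.389 and 0.171 to 0.605 of its level. The libraries of these 2 lines bear numbers of 1 common series, so a difference between the lines and a difference in library or read handling cannot be told apart.

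**Figure D4:**
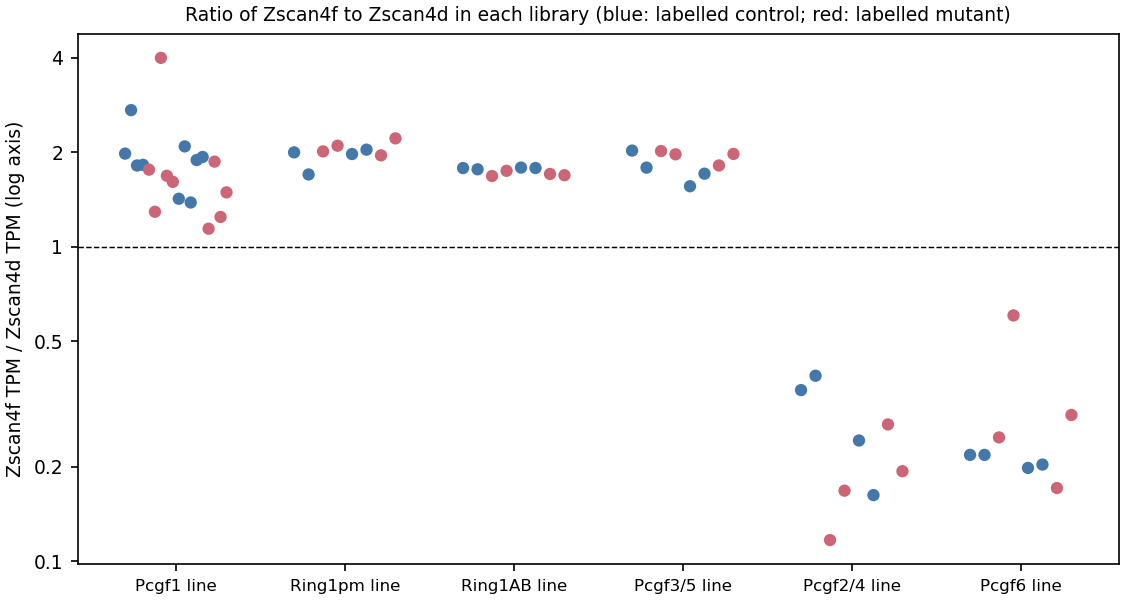
Ratio of *Zscan4f* to *Zscan4d* TPM (log axis) in each library with *Zscan4d* above 0, by line, with a line at a ratio of 1. All libraries of the *Pcgf2/4* and *Pcgf6* lines lie below 1, at 0.117 to 0.605, and those of the other 4 lines lie above it, at 1.14 to 3.99.

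A wider list of 39 genes known from two-cell embryos or two-cell-like cells, the 6 members left out, had 34 genes in the tables and 27 above 0 in at least 1 library. In *Pcgf1*-mutant against control EBs 24 of the 27 were lower, with a median log2 difference of −0.90 against −0.03 over all genes. At an unadjusted p under 0.05, 7 were lower, as were 1381 of all 20594 genes. In limma 0 of the 27 passed, where 1.95% of all genes did. Without mutant ESC replicate 1 or mutant EB replicate 3 the count was 1, and without control ESC replicate 4 it was 2. With the replicate block 3 fell, where 5.58% of all genes did: *Zscan4a*, *Zscan4b* and *Usp17lc*, a deubiquitinating enzyme of the *Usp17*-like family. *Zscan4a* and *Zscan4b* are *Zscan4* copies that followed the *Zscan4* sum (r = 0.973 and 0.968), so their calls are not separate from those of the members. In mutant EBs against mutant ESCs 4 fell, *Gm5662* by 2.23, *Zscan4b* by 2.01, *Usp17lc* by 1.86 and *Usp17la* by 1.42 (limma adjusted p = 0.0399, 0.0426, 0.021 and 0.0447), where 2096 of all 20594 genes fell. With the block 10 fell, where 20% of all genes did. In the fit that lacked the block, the count was 0 without mutant ESC replicate 1 or 4 or mutant EB replicate 2, 1 without mutant ESC replicate 5 or mutant EB replicate 4, and 2 without replicate 5 of either EB group. Between mutant and control ESCs 0 passed, adjusted or unadjusted, and the median was 0.03. Between control EBs and control ESCs 10 were higher and 16 lower, and 0 passed in limma, where 24.9% of all genes did. At an unadjusted p under 0.05, 1 was higher, as were 3321 of all 20594 genes.

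In the point mutant line all 27 genes of the wider list were higher in mutant cells at both stages. The median log2 difference was 3.19 in ESCs against 0.12 over all genes, with 0 passing in limma, where 2.54% of all genes passed. At an unadjusted p under 0.05, 23 were higher, as were 2886 of all 20279 genes. In EBs the median was 3.12 against 0.10 over all genes, and 22 were higher at an unadjusted p under 0.05, as were 3185 of all 20279 genes. *Gm13119* and the *Zscan4* copies *Zscan4a* and *Zscan4b* rose by 2.73, 3.37 and 3.42 (limma adjusted p = 0.0424, 0.0461 and 0.0482), where 3.76% of all genes rose. These 3 calls were also lost without any 1 of the 8 libraries. Control ESCs of the point mutant line were higher than those of the *Pcgf1* line in 26 of the 27, of which 10 passed in limma, and 0 passed without point mutant control ESC replicate 1, 3 without *Pcgf1* control ESC replicate 3 and 5 without its replicate 2. Of all genes, 8.19% were higher in limma in that comparison of control ESCs. In the *Ring1A/B* line all 27 rose in limma from labelled ESC to labelled EB in both states, with medians of 5.19 and 4.09, where 28.6% and 36.6% of all genes rose. Between labelled mutant and control EB 25 fell, with a median of −1.29, where 14.1% of all genes fell.

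**Figure D5:**
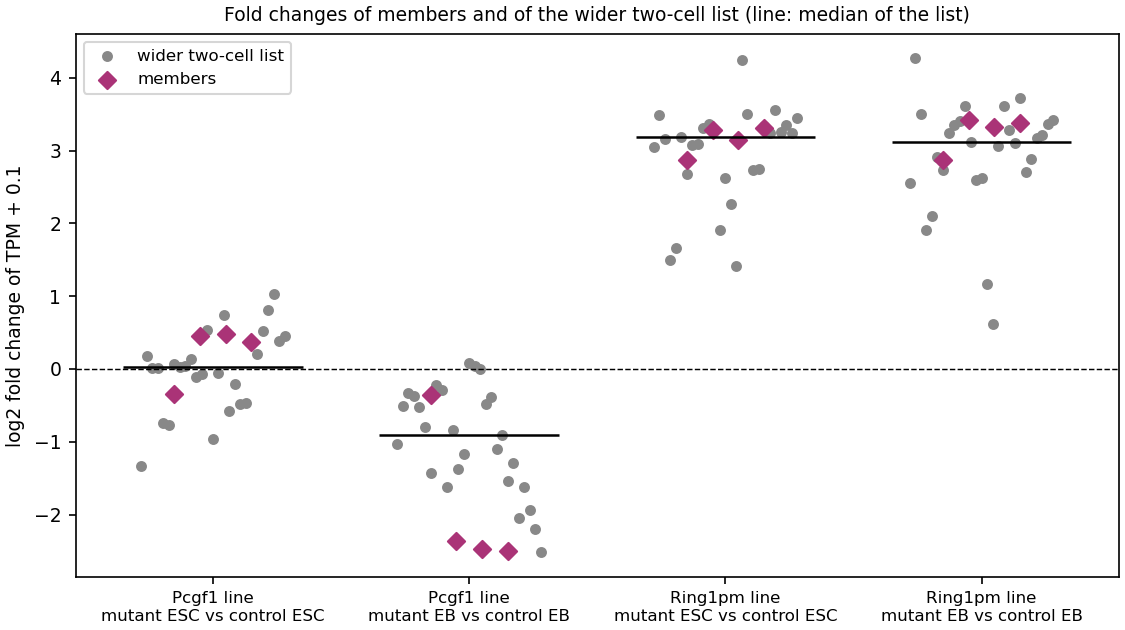
Log2 differences of the 27 genes of the wider two-cell list (grey points) and the 4 members tested (coloured points) in mutant against control ESCs and EBs of the *Pcgf1* and *Ring1* point mutant lines, with the median of the list. All 27 lie above 0 in the point mutant line, with medians of 3.19 in ESCs and 3.12 in EBs, and 24 of 27 lie below 0 in *Pcgf1*-mutant EBs, with a median of −0.90.

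Of the known regulators, *Dux*, the activator of the programme, was 0.900 and 0.618 TPM in control ESCs, 3.56 and 1.88 TPM in mutant ESCs, 2.10 and 0.918 TPM in control EBs and 8.47 and 4.73 TPM in mutant EBs of the point mutant line, without overlap at either stage. Its log2 differences, 1.67 in ESCs and 2.10 in EBs, did not pass (limma adjusted p = 0.166 and 0.0765). In the *Pcgf1* line *Dux* stayed at 0 to 0.889 TPM, and its difference between mutant and control EBs was −0.52 (limma adjusted p = 0.853). *Dppa2*, which acts ahead of *Dux*, rose in *Pcgf1*-mutant cells, by 0.57 in ESCs and 0.61 in EBs (limma adjusted p = 0.0252 and 0.0053), while its partner *Dppa4* was 0.37 and 0.69 higher without passing (0.614 and 0.0512). Of the 18 regulators listed, *Dppa2* was the 1 that passed in limma between mutant and control cells at each stage of the *Pcgf1* line. Of all genes, 0.641% passed there in ESCs and 1.95% in EBs. In the point mutant line *E2f6*, a subunit of PRC1.6, rose by 1.00 in mutant ESCs (limma adjusted p = 0.0315), where 2.54% of all genes passed. In mutant EBs 0 of the 18 passed, and 4 had an unadjusted p under 0.05. Of all 20279 genes, 3185 were higher and 1003 lower in mutant EBs at that level. *Pcgf6*, *L3mbtl2*, *Mga* and *Max* were not among the genes called between mutant and control cells in either line.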

How the data were processed

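Poly(A) RNA was sequenced in single-end reads of 75 or 50 bases and mapped by the authors to mm9 with STAR (2.5.2b, per the labels), which also served to count reads on exons. The deposited tables give TPM per gene, 1 table for each library, each summing to 1000000. How multi-mapping reads were treated and how TPM was computed are not given in the sources used here. The counts are not used here and read depth is unknown, so no counting interval is given, and the authors' count-based DESeq2 test could not be repeated.

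Groups came from the sample labels. Values were tested as log2(TPM + 0.1) in limma (3.58.1, R 4.3.3; lmFit and eBayes with trend, two-sided), 1 fit per line over its 4 groups, on genes above 0 TPM in at least 1 library, with Benjamini-Hochberg adjustment over all genes of the fit and a threshold of 0.05. Fold changes on this scale understate the change of genes near 0. A further fit covered the *Pcgf1* and *Ring1* point mutant lines. The fitting code was tested on simulated data. Descriptions were made in Python 3.11.15 with numpy 2.4.6 and pandas 2.3.3, and figures with matplotlib 3.10.9. The alternatives were a pseudocount of 1, a mean of at least 1 TPM, median-of-ratios and quantile rescaling, the replicate number as a block, the groups compared alone and each library left out. In the *Pcgf1* line the numbers, taken from titles, pair the libraries: deviations from group means correlated at 0.317 to 0.653 between same-numbered libraries over 13400 genes. For 1 mutant EB library the title gave replicate 4 and another label 5. Nothing in the labels shows that replicates were separate cultures, so p-values measure the spread between these libraries, which may be technical. No 2 of the 1711 pairs of libraries held identical values.

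Named were the 6 genes, the called genes of the wider list where 6 or fewer, regulators, and the 10 genes (mean of at least 0.5 TPM) most correlated with the *Zscan4* sum. Members and lists were chosen with earlier results of these data known. Promoters came from RefSeq (GRCm38.p6), where 4 of the 6 genes matched, and gene positions from GENCODE on mm9.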

Additional observations from a re-analysis of the deposited data

Results flagged for a closer look

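Of 16 sets of 4 or 5 libraries tested for a stray value, 2 held one, and chance gives about 1 in 20. *Zscan4d* was 0 TPM in *Pcgf1*-mutant EB replicate 2, apart from the other 4 libraries of its group (gap over range 0.751). *Zfp352* was 0 TPM in *Pcgf1* control ESC replicate 3, against 0.188 to 0.215 TPM in the other 3 (0.92).

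The summed *Zscan4* level moved in opposite directions in different lines under the same labelled contrast, with every library on its side, a difference that was not tested. From labelled control ESC to control EB the log2 ratio of means was 5.38 in the *Ring1A/B* line, 4.29 in the *Pcgf6* line and 0.816 in the *Pcgf2/4* line, but −2.11 in the *Pcgf3/5* line. Such separation was frequent there: 42.7%, 26.5% and 7.81% of all genes were higher without overlap in the first 3 lines, and 29.1% were lower in the *Pcgf3/5* line. From control to mutant EB it was −2.05 in the *Pcgf1* line and −0.672 in the *Ring1A/B* line, but 3.25 in the *Ring1* point mutant line, 1.72 in the *Pcgf3/5* line and 0.495 in the *Pcgf2/4* line. Of all genes, 1.63% and 27.7% were lower without overlap in the first 2 of these lines, and 30.1%, 12.9% and 8.19% were higher in the other 3. Among these lines, labels and library names matched in the *Pcgf1* and point mutant lines alone. By name, the contrasts of the other lines were not the same. The labelled stage contrast set mutant against control in the *Ring1A/B*, *Pcgf6* and *Pcgf2/4* lines and EB against ESC in the *Pcgf3/5* line. The labelled contrast of EBs set mutant EB against mutant ESC in the *Ring1A/B* line. In the *Pcgf3/5* line it set 1 mutant EB and 1 mutant ESC library against 1 control EB and 1 mutant EB library. In the *Pcgf2/4* line each side held 1 mutant ESC and 1 mutant EB library.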

How the results depend on the processing

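For single genes, 786 alternative values kept direction and side of the threshold, 35 crossed to the significant side, 58 crossed away from it and 8 changed sign. Of the 4 expressed genes, the number called in the *Pcgf1* line with the replicate block was 2 for mutant EB against mutant ESC and 3 for mutant against control EB, instead of 0. With a mean of at least 1 TPM it was 2 for the former, and with 1 library left out it was 0 to 2 in both. In the *Ring1* point mutant line it was 4 with the block and 3 with that filter for mutant against control ESC, instead of 0. For mutant against control EB it was 0 instead of 3 with a pseudocount of 1, median-of-ratios scaling, quantile normalization, only the groups compared, or any library left out. In the *Ring1A/B* line it was 0 to 3 for mutant against control ESC with 1 library left out. It was 3 instead of 0 in the *Pcgf3/5* line for control EB against control ESC with only the groups compared, and 1 instead of 0 in the *Pcgf6* line for the same contrast with the block. For the point mutant against the *Pcgf1* line in control ESCs it was 0 instead of 2 with only the groups compared and 0 to 2 with 1 library left out. The block changed no other count of the 4 genes by over 1.5 times. With 1 library left out, *Zscan4c* ranged from −0.10 to 0.99 for *Pcgf1*-mutant against control ESC, and in the point mutant line from −0.34 to 1.25 for control EB against control ESC, −0.10 to 1.30 for mutant EB against mutant ESC and −0.65 to 0.94 for the difference of the 4-OHT effects. Outside the *Pcgf1* line, with 2 replicate numbers a line, the 2 deviations of a group mirror each other, and no label says that the numbers pair the libraries. In the *Pcgf2/4* and *Pcgf6* lines every replicate 1 library is named ESC and every replicate 2 library EB, so the numbers there follow the named stage. In the point mutant line the library numbers run in order through replicate 1 and then replicate 2. Deviations of same-numbered libraries correlated at 0.106 to 0.381 in the point mutant line, −0.0376 to 0.0481 in *Ring1A/B*, 0.616 to 0.758 in *Pcgf2/4*, −0.79 to 0.0823 in *Pcgf3/5* and 0.281 to 0.759 in *Pcgf6*. With the block, the limma adjusted p of *Zscan4c* in the point mutant line was 0.00159 in ESCs and 0.00133 in EBs, and 24 and 25 of the 27 genes of the wider list rose instead of 0 and 3. The share of all genes passing is not given here for block fits outside the *Pcgf1* line or for groups fitted alone. Counts of genes called in those fits cannot be set against it. The median log2 difference of all genes was 0.119 and 0.103 in the 2 mutant contrasts of the point mutant line and 0.125 and 0.203 in the stage contrasts of *Ring1A/B*, and near 0 after rescaling. The split of higher against lower calls went from 763 and 155 to 634 and 295 (median-of-ratios) or 481 and 299 (quantile) for point mutant against control EB, and from 475 and 40 to 167 and 40 (quantile) for ESCs. In *Ring1A/B* it went from 5825 and 2970 to 4586 and 4427 or 3901 and 4649 for control EB against control ESC, from 7447 and 4048 to 5876 and 5443 or 5570 and 5473 for mutant EB against mutant ESC, and from 3923 and 2861 to 3099 and 3605 (median-of-ratios) for mutant against control EB. The causes of these changes were not tested.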

Other observations

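The targeted genes of the other lines were not read as checks of the labels. In the *Pcgf2/4*, *Pcgf3/5* and *Pcgf6* lines 3 of them did not overlap by library name, while *Pcgf2* and *Pcgf3* did overlap in their lines. The share of all genes without overlap by name is not given here. *Pcgf6* was 34.7 to 46.3 TPM in the 4 *Pcgf6* libraries named mutant and 67.05 to 105 TPM in the 4 named control. *Pcgf5* was 15.6 to 21.30 TPM in the 4 *Pcgf3/5* libraries named mutant and 21.33 to 24.7 TPM in the 4 named control. *Bmi1*, which encodes PCGF4, lay the other way, at 7.01 to 10.03 TPM in the 4 *Pcgf2/4* libraries named mutant and 4.12 to 5.47 TPM in the 4 named control.

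Within the 4 groups of the *Pcgf1* line, after the group means were taken out, the genes most like the *Zscan4* sum still followed it from library to library, with r of 0.965 for *Zscan4a*, 0.947 for *Zscan4b*, 0.933 for *Gm13119* and 0.895 for *Gm5662*. *Zscan4a* was close to *Zscan4d* in level in the *Pcgf6* line, at 130 and 126 TPM in the library labelled control EB replicate 1, where *Tmem92*, a gene of the wider list with no shared sequence examined here, was 113 TPM.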
